A study of Mus musculus with 34 samples.

Results

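The sodium pump (Na,K-ATPase) and its FXYD regulators were examined in the kidney transcriptome of 34 mice through 7 genes, Atp1b1, Atp1b3, Fxyd1, Fxyd2, Fxyd4, Fxyd5 and Fxyd6. They were named as a list of pump and FXYD genes, without a rule on measured values but with earlier results of these data known. They are 7 of the 23509 gene symbols present in every count table. All 7 passed the filter on low counts, which left 15644 genes for testing. UNT mice (n = 12) were wildtype C57BL6 animals that carried no transgene and received no injection. PBS mice (n = 11) and RGLS4326 mice (n = 11) were Pkd2-KO animals on the same strain, in which Pkhd1/cre deletes both floxed Pkd2 alleles (Pkd2 F/F), and which were injected subcutaneously on P10, P11, P12 and P19 with PBS or with RGLS4326 at 20 mg per kg. Kidneys of all groups were taken at P28. The GEO labels spell the genotype "Pdk2KO" beside a protocol that names Pkd2-KO. RGLS4326 is an inhibitor of miR-17, a modified oligonucleotide that pairs with the seed, the stretch by which a microRNA finds its target mRNAs. Cre under Pkhd1 control acts in part of the tubular epithelium, whereas RNA was taken from the kidney as an organ, so that recombined and other cells were measured together. Genotype and injection cannot be told apart in the comparison of PBS with UNT mice, since UNT mice were not injected. A control oligonucleotide was not analysed here, so that the action on miR-17 and other actions of an injected oligonucleotide cannot be told apart.

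The sodium pump moves sodium out of the cell and potassium in, and in the nephron it sits in the basolateral membrane, where it drives the reabsorption of sodium. It is built of a catalytic α subunit and a β subunit, a glycoprotein that the α subunit needs to fold and reach the membrane. FXYD proteins are small single-span membrane proteins that bind the α/β complex and tune its affinity for sodium, potassium or ATP, each in its own set of tissues. In polycystic kidneys, tubules give way to fluid-filled cysts lined by epithelium. RNA levels measured here say nothing about the place or activity of the protein.

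Libraries held from 17603122 to 54981992 reads in genes, and each member had at least 126 reads in every library. Levels are given as CPM, a gene's counts relative to the library's reads in genes, with TMM scaling. Pkd2 ranged from 219.6 to 338 CPM in UNT, from 98.0 to 215 CPM in PBS and from 170.0 to 237 CPM in RGLS4326 kidneys, counted over the gene as a unit, so that reads of the deleted exons were not separated. All 10 proximal tubule markers, such as Lrp2 and Slc5a12, were expressed, and their summed level ranged from 1021 to 35181 CPM. Summed reads of 5 adrenal cortex markers (Cyp11a1, Cyp11b1, Cyp11b2, Star and Hsd3b1) exceeded 5 CPM, here without TMM scaling, in 6 libraries, 4 of the PBS group (10.1 to 1253) and 2 of the RGLS4326 group (13.5 and 40.1), against at most 4.28 in the other libraries. Counts of called members are therefore also given without these 6 libraries. The S numbers in the names of the tables restart, which divides the libraries into 3 numbering sets of 3 or 4 mice per group, and the share of reads assigned to no gene, below the no-gene share, was 9.84 to 11.3% in UNT, 5.18 to 9.0% in PBS and 4.94 to 12.0% in RGLS4326 libraries. Reads that did not map to a unique place made up 22.8 to 25.7% of reads in UNT, 14.8 to 19.4% in PBS and 14.8 to 19.1% in RGLS4326 libraries. What the sets stand for is not given in the sources used here.

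Compared with UNT kidneys, PBS kidneys had less of the main β subunit Atp1b1 and of Fxyd2, more of Fxyd4, Fxyd5 and Fxyd6, and slightly more of Atp1b3 and Fxyd1. All 7 members passed the edgeR test in this comparison (5 higher, 2 lower), in which 82.1% of all tested genes did (43.1% higher, 39% lower), so that the number of members called was near the background and the sizes of the differences carry the description. The CPM values of 5 of the 7 members did not overlap between PBS and UNT mice, against 42.5% of all tested genes. The median log2 fold change was 0.50 over the members and 0.04 over all tested genes. Without the 6 libraries with adrenal markers, 7 members and 77.5% of all tested genes were called. With the no-gene share as a covariate, 5 members and 70.2% of all tested genes were called, without Atp1b3 and Fxyd1. Since this share did not overlap between PBS and UNT libraries, group and share cannot be fully told apart in that fit. In numbering set 2 alone 6 members (71.4% of all tested genes), without Fxyd1, and in set 3 alone 6 members (64.8%), without Atp1b3, were called. In counts of all genes, 6746 were higher and 6095 lower with TMM scaling, and 8970 were higher and 4099 lower when library size alone was used. In bulk kidney RNA, fewer cells of a type and less RNA per cell cannot be told apart.

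**Figure D1:**
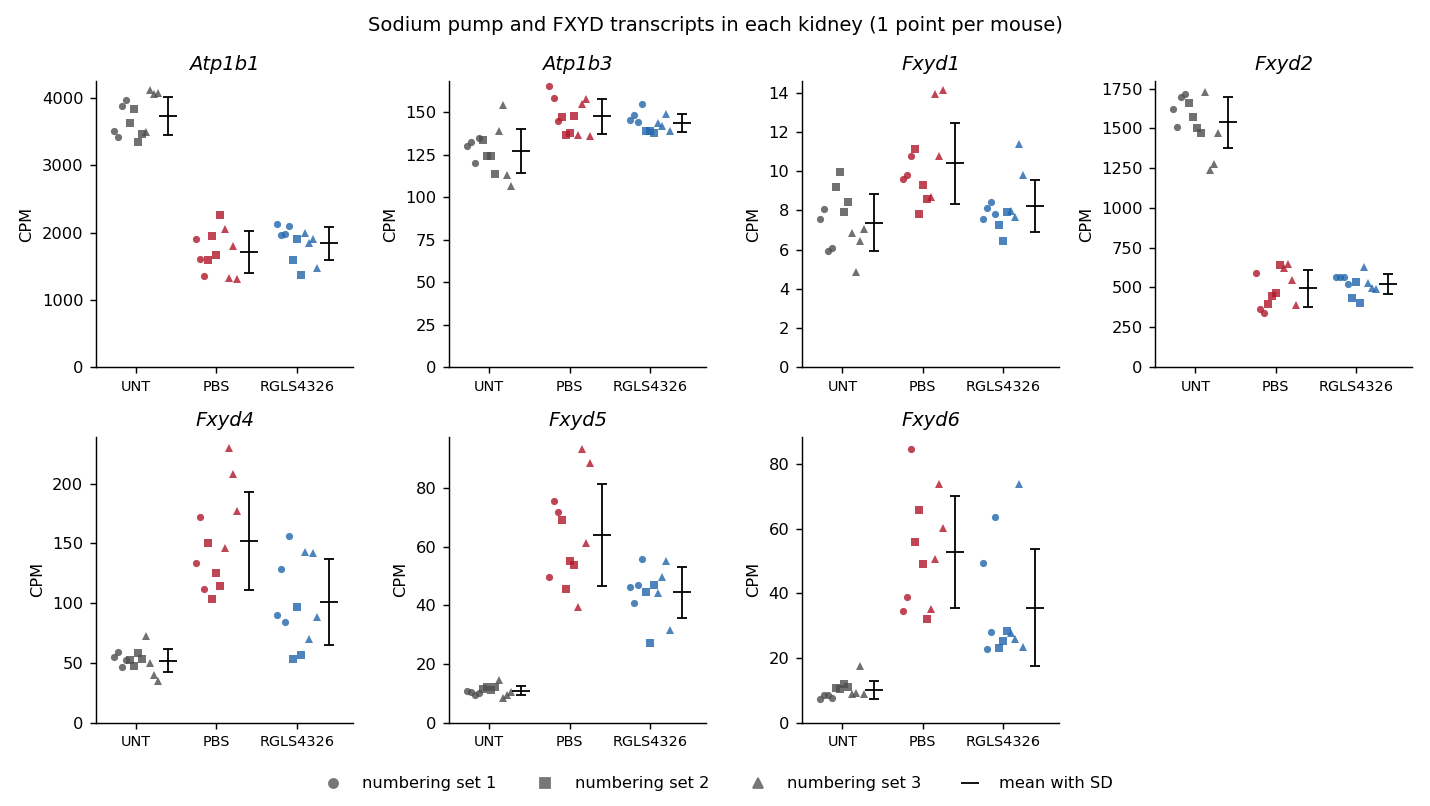
CPM of the 7 members (y axes, linear from 0) in each of 34 mice by group (x axis), with points for mice, symbols for the numbering set, and a black bar and whiskers for the group mean and SD. Values of Atp1b1 and Fxyd2 in PBS and RGLS4326 mice all lie below those of UNT mice, and values of Fxyd5 and Fxyd6 in these mice all lie above them.

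RGLS4326 kidneys differed from PBS kidneys in 4 of the 7 members, all lower (Fxyd1, Fxyd4, Fxyd5 and Fxyd6). Of all tested genes, 33.8% were called in this comparison, 15.3% higher and 18.5% lower in RGLS4326. No member was called higher by edgeR or by DESeq2, and in the edgeR fit of 34 mice 0 were higher at an unadjusted p under 0.05. The median log2 fold change was -0.34 over the members and 0.00 over all tested genes. The CPM values of all 7 members overlapped between RGLS4326 and PBS mice, and 0.0639% of all tested genes had values that did not overlap. The number of members called was 3 without the 6 libraries with adrenal markers, where 15.9% of all tested genes were called. It was 0 with the no-gene share of reads as a covariate (0.569% of all tested genes), and 0, 2 and 0 within the numbering sets 1, 2 and 3 alone (0.343%, 25.5% and 0%), which hold 3 or 4 mice per group. All members called in these fits were lower in RGLS4326. In edgeR fits that gave 0 calls, an unadjusted p under 0.05 was found in set 1 for 4 members, 2 higher (Atp1b1 and Fxyd2) and 2 lower (Fxyd1 and Fxyd5), in set 3 for 2, both lower (Fxyd4 and Fxyd5), and with the covariate for 1, lower (Fxyd5). All PBS libraries of set 1, and RGLS4326 replicate 2 of that set, are among the 6 libraries with adrenal markers. Set 1 alone and the fit without these libraries are therefore not separate checks. With the numbering set as a covariate and all mice in the fit, the 4 members were called (edgeR adjusted p = 0.0229 for Fxyd1, 0.00391 for Fxyd4, 0.00329 for Fxyd5 and 0.0284 for Fxyd6), and so were 37.5% of all tested genes. The part of the no-gene share in the count was not tested.

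Against UNT kidneys, RGLS4326 kidneys still differed in 6 members (4 higher, 2 lower), in a comparison in which 77.7% of all tested genes were called (40.8% higher, 36.9% lower). Values of 4 members did not overlap between RGLS4326 and UNT mice, against 36.7% of all tested genes. Without the 6 libraries with adrenal markers, 6 members and 75.1% of all tested genes were called. In numbering set 2 alone, 4 members and 64.2% of all tested genes were called, with neither Atp1b3 nor Fxyd4 among them. The 3 comparisons share mice, PBS mice, UNT mice or RGLS4326 mice entering 2 of them each, and are therefore not independent of each other.

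**Figure D2:**
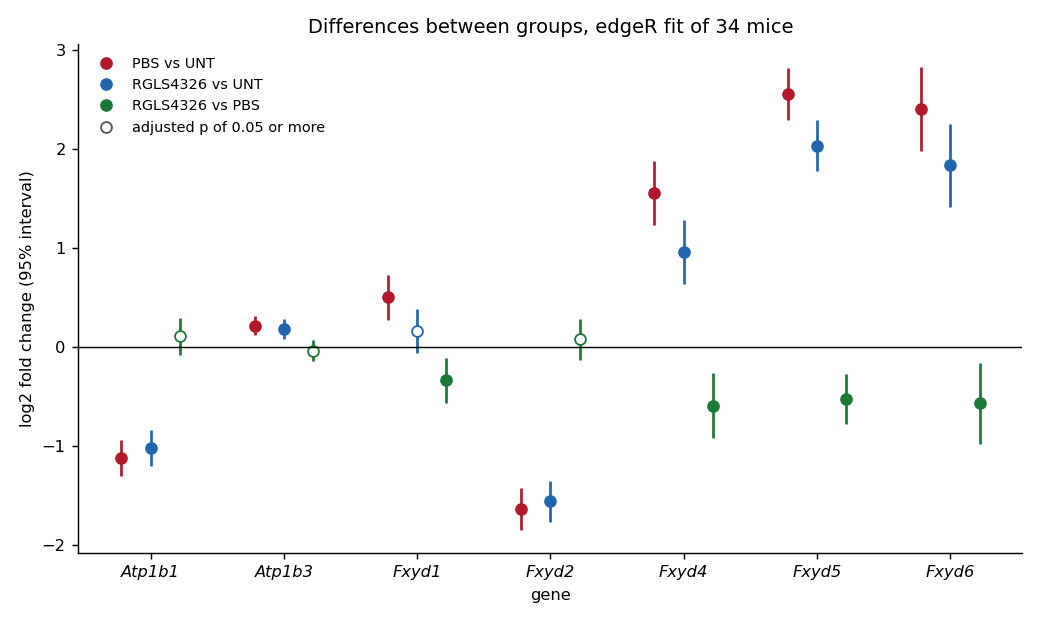
Log2 fold change (y axis) of the 7 members (x axis) in each comparison, from the edgeR fit of 34 mice, with points for estimates, lines for their 95% intervals, and open points where the adjusted p is 0.05 or more. Estimates of RGLS4326 vs PBS run from -0.59 (Fxyd4) to 0.10 (Atp1b1).

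To compare genes with each other, CPM was divided by the exon length annotated in GENCODE M21. On this per-kilobase scale, Atp1b1 was the member with the highest level in every group, at 1213 ± 91.9 (SD, n = 12) CPM per kb in UNT, 556 ± 102 (n = 11) in PBS and 597 ± 81.0 (n = 11) in RGLS4326 kidneys. Fxyd2 followed, and its range did not overlap that of Atp1b1 in any group. In UNT kidneys the order then ran through Atp1b3 (53.2 CPM per kb) and Fxyd4 (26.4 CPM per kb) without overlap of neighbours to Fxyd1 (3.37), Fxyd5 (2.59) and Fxyd6 (2.43), which overlapped. In PBS kidneys Fxyd4 (77.6 CPM per kb) stood between Fxyd2 (124) and Atp1b3 (61.8) and overlapped both, and Fxyd5 (15.2) and Fxyd6 (12.8) stood above Fxyd1 (4.76) with no overlap of Fxyd6 and Fxyd1. In RGLS4326 kidneys Atp1b3 (60.1 CPM per kb) and Fxyd4 (51.5) overlapped, and the order was otherwise that of PBS kidneys. In raw CPM, Atp1b1 ranked 14th of 15644 genes in UNT kidneys, 21st in PBS and 15th in RGLS4326 kidneys, and Fxyd2 ranked 43rd, 179th and 144th. The authors' annotation is not given in the sources used here, so that lengths, and with them the order of close neighbours, are approximate.

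**Figure D3:**
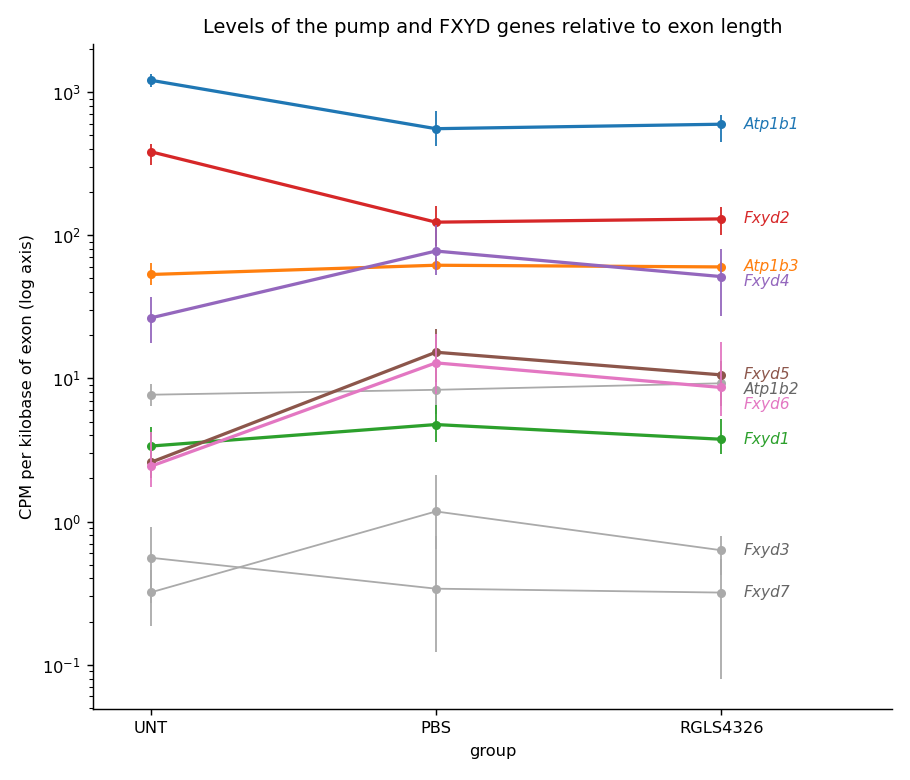
Mean CPM per kilobase of exon (y axis, log scale) of the 7 members and 3 others, Atp1b2, Fxyd3 and Fxyd7, in each group (x axis), with points for group means, vertical lines from the lowest to the highest mouse, and members in colour with thick lines. Atp1b1 lies highest in every group, and Fxyd5 and Fxyd6 lie below Fxyd1 in UNT and above it in PBS and RGLS4326 kidneys.

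Atp1b1, at chr1:164437109-164458355 on the minus strand (GRCm38), encodes the β1 subunit, the main β subunit along the nephron. It ranged from 3356 to 4116 CPM in UNT mice (median 3735), from 1305 to 2268 CPM in PBS mice (median 1671) and from 1374 to 2123 CPM in RGLS4326 mice (median 1902). Every Pkd2-KO mouse lay below the lowest UNT mouse, and the treated and PBS ranges overlapped over most of their width. The fitted level was 2.18-fold lower in PBS than in UNT kidneys (log2 fold change -1.13, SE 0.09, edgeR adjusted p = 7.31e-14), and 2.03-fold lower in RGLS4326 than in UNT kidneys (log2 fold change -1.02, SE 0.09, edgeR adjusted p = 1.13e-12). RGLS4326 and PBS kidneys differed by a log2 fold change of 0.10 (95% interval -0.08 to 0.29, edgeR adjusted p = 0.368). Its direction turned between numbering sets, at 0.34, -0.19 and 0.16 in sets 1, 2 and 3, and it was 0.0080 without the 6 libraries with adrenal markers, with no call in any of these fits. Exons of Nme7, on the opposite strand, overlap 18.7% of the exon bases of Atp1b1, and Nme7 had at most 23.3 CPM in any library.

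Atp1b3, at chr9:96332655-96364442 on the minus strand, encodes the β3 subunit, an alternative partner of the catalytic subunit with broad expression. It ranged from 107 to 154 CPM in UNT mice (median 127), from 136 to 165 CPM in PBS mice (median 147) and from 138 to 155 CPM in RGLS4326 mice (median 143). Groups overlapped, and 4 of 11 PBS mice lay above the highest UNT mouse. The level was 1.16-fold higher in PBS than in UNT kidneys (log2 fold change 0.21, SE 0.05, edgeR adjusted p = 0.000181) and 1.13-fold higher in RGLS4326 than in UNT kidneys (edgeR adjusted p = 0.00174), with no call between RGLS4326 and PBS (log2 fold change -0.04, 95% interval -0.14 to 0.06, and 0.024 when the no-gene share entered as a covariate). With the no-gene share of reads as a covariate, the difference of PBS from UNT was 0.09 on the log2 scale (edgeR adjusted p = 0.217), and in numbering set 3 alone it was 0.19 (edgeR adjusted p = 0.200). The difference of RGLS4326 from UNT was 0.11 with that covariate (edgeR adjusted p = 0.0369), and it was not called in set 2 (0.14, edgeR adjusted p = 0.0834) or set 3 (0.16, edgeR adjusted p = 0.303). With library size alone in place of TMM scaling, the log2 fold changes against UNT were 0.51 in PBS and 0.48 in RGLS4326 kidneys. Within a library, 100 reads of Atp1b1 went with 3.42 ± 0.433 (SD, n = 12) reads of Atp1b3 in UNT, 8.88 ± 1.70 (n = 11) in PBS and 7.93 ± 1.02 (n = 11) in RGLS4326 kidneys. The highest UNT value of this ratio was 3.97 and the lowest value in any Pkd2-KO mouse was 6.51, so that UNT mice did not overlap with either Pkd2-KO group, while PBS and RGLS4326 mice overlapped. The ratio does not depend on scaling, and its numerator and denominator are not corrected for exon length.

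Promoters are shown for Atp1b1, which had the highest level and fell, and for Fxyd4 and Fxyd5, which rose, as the 250 bases before and 50 bases after the annotated start, 5′ to 3′ on the strand of the gene. Sequences are from RefSeq on GRCm38.p6, and the set of promoters used here covered 6 of the 7 members (Fxyd2 not among them). Those shown lie at chr1:164458306-164458605, chr6:117937286-117937585 and chr7:31042282-31042581, all on the minus strand. Capitals mark the GC box GGGCGG, or its reverse complement CCGCCC, and in Fxyd4 also CATTCC, the reverse complement of the TEAD motif GGAATG.
Atp1b1: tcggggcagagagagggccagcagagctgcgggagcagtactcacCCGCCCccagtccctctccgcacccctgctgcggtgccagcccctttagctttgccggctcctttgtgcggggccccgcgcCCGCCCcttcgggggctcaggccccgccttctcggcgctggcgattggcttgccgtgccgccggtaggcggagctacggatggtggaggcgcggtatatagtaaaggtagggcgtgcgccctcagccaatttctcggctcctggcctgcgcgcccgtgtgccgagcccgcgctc
Fxyd4: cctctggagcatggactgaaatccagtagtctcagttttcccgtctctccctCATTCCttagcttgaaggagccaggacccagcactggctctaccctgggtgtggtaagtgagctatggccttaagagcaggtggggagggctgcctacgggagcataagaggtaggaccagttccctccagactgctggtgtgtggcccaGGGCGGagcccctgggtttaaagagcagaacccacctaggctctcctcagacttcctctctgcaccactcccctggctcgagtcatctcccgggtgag
Fxyd5: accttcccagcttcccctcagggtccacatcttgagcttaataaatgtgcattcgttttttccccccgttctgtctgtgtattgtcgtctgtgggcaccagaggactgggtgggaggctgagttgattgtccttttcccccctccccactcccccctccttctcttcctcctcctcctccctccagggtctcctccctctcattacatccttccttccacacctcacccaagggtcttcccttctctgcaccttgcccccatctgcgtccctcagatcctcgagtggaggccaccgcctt
The promoter of Atp1b1 was the most GC-rich of the 3, at 71% with 31 CG dinucleotides, against 58.7% and 5 for Fxyd4, 57.3% and 6 for Fxyd5, and medians of 52.7% and 7 over 32851 promoters. Among members not shown, which also rose, the 2 Atp1b3 promoters were more GC-rich than that of Atp1b1, at 76% with 34 and 74.7% with 39. Those of Fxyd1 (58.7% with 6) and Fxyd6 (54.3% with 12) were less so. The GC box occurred 2 times in Atp1b1, 6 times in 1 of the 2 Atp1b3 promoters in the table, 1 time in Fxyd4 and not in Fxyd1, Fxyd5 or Fxyd6, and 35.7% of all promoters held it. The TEAD motif occurred 1 time in Fxyd4 (14.7% of all promoters) and the TATA box TATAAA 1 time in Fxyd1 (13.6%). AP-1 (TGACTCA, 5.20%), CRE (TGACGT, 7.51%), the steroid receptor half-site (AGAACA, 19.0%) and the HNF4A half-site (CAAAGTC, 4.44%) occurred in no member promoter in the table. Both strands were searched, no match overlapped another, and a match in letters is a description and not a binding site.

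Fxyd2, at chr9:45399669-45410278 on the plus strand, encodes the γ subunit, the FXYD protein of proximal tubule, thick ascending limb and distal convoluted tubule. It ranged from 1236 to 1728 CPM in UNT mice (median 1542), from 336 to 645 CPM in PBS mice (median 463) and from 401 to 629 CPM in RGLS4326 mice (median 530.1). Every Pkd2-KO mouse lay below the lowest UNT mouse, and the RGLS4326 values lay inside the PBS range. The level was 3.11-fold lower in PBS than in UNT kidneys (log2 fold change -1.64, SE 0.10, edgeR adjusted p = 1.30e-16) and 2.95-fold lower in RGLS4326 than in UNT kidneys (log2 fold change -1.56, SE 0.10, edgeR adjusted p = 6.19e-16). RGLS4326 and PBS kidneys differed by 0.08 on the log2 scale (95% interval -0.13 to 0.28, edgeR adjusted p = 0.576). This difference was 0.38, -0.085 and -0.037 in numbering sets 1, 2 and 3 and -0.050 without the 6 libraries with adrenal markers, so that its direction turned, with no call in any of these fits. Markers of the segments that express Fxyd2 fell with it in PBS vs UNT. All 10 proximal tubule, 6 of 7 thick ascending limb and 5 of 5 distal convoluted tubule markers were lower and 1 thick ascending limb marker, Cldn16, was higher, with median log2 fold changes of -2.78, -1.68 and -2.41. Summed proximal tubule markers ranged from 23168 to 35181 CPM in UNT, from 1021 to 4911 in PBS and from 2662 to 5369 in RGLS4326 kidneys. In RGLS4326 vs PBS, 5 of these 10, 4 of 7 and 2 of 5 were higher and Cldn16 was lower, while Fxyd2 and Atp1b1 were not called. The part of these markers in the result was not tested.

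Fxyd4, at chr6:117933559-117937692 on the minus strand, encodes CHIF, the FXYD protein of the collecting duct, which raises the affinity of the pump for sodium and responds to aldosterone. It ranged from 34.7 to 72.7 CPM in UNT mice (median 52.2), from 104 to 229.7 CPM in PBS mice (median 146) and from 53.5 to 156 CPM in RGLS4326 mice (median 89.8). PBS values did not overlap with UNT values, 7 of 11 RGLS4326 mice lay below the lowest PBS mouse, and 8 of 11 lay above the highest UNT mouse. The level was 2.93-fold higher in PBS than in UNT kidneys (log2 fold change 1.55, SE 0.16, edgeR adjusted p = 6.45e-11), and 1.51-fold lower in RGLS4326 than in PBS kidneys (log2 fold change -0.59, SE 0.16, edgeR adjusted p = 0.00855). It was 1.94-fold higher in RGLS4326 than in UNT kidneys (edgeR adjusted p = 1.64e-06). When the no-gene share entered as a covariate, the difference on the log2 scale was 0.85 in PBS vs UNT (edgeR adjusted p = 8.95e-05) and 0.58 in RGLS4326 vs UNT (edgeR adjusted p = 0.000305). In numbering set 2 alone the latter was 0.37 and not called (edgeR adjusted p = 0.102). The treatment difference was -0.28 with the no-gene share of reads as a covariate (edgeR adjusted p = 0.263), and -0.27, -0.82 and -0.78 within the 3 numbering sets, called in set 2 alone (edgeR adjusted p = 0.461, 0.0122 and 0.262). Principal cell markers moved with Fxyd4. All 7 were higher in PBS vs UNT (median log2 fold change 1.42), 4 of 7 were lower in RGLS4326 vs PBS (median -0.52), and their summed level ranged from 642 to 1010.4 CPM in UNT, from 1381 to 3078 in PBS and from 752 to 2625 in RGLS4326 kidneys. Their part in the result was not tested.

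The reads of Fxyd4 that went with 100 reads of Fxyd2 numbered 3.37 ± 0.566 (SD, n = 12) in UNT, 31.9 ± 9.81 (n = 11) in PBS and 19.1 ± 6.07 (n = 11) in RGLS4326 kidneys. The highest UNT mouse, at 4.21, lay below the lowest RGLS4326 mouse, at 12.4, and the PBS and RGLS4326 ranges overlapped. The collecting duct FXYD transcript therefore rose relative to that of earlier segments in every Pkd2-KO mouse. Means of this ratio in RGLS4326 kidneys were 20.8, 14.9 and 20.6 in the 3 numbering sets, against 34.4, 26.4 and 35.6 in PBS kidneys. The ratio of Fxyd5 to Fxyd2 rose further, from 0.707 ± 0.0835 reads per 100 (SD, n = 12) in UNT to 13.9 ± 5.77 (n = 11) in PBS and 8.65 ± 2.14 (n = 11) in RGLS4326 kidneys.

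**Figure D4:**
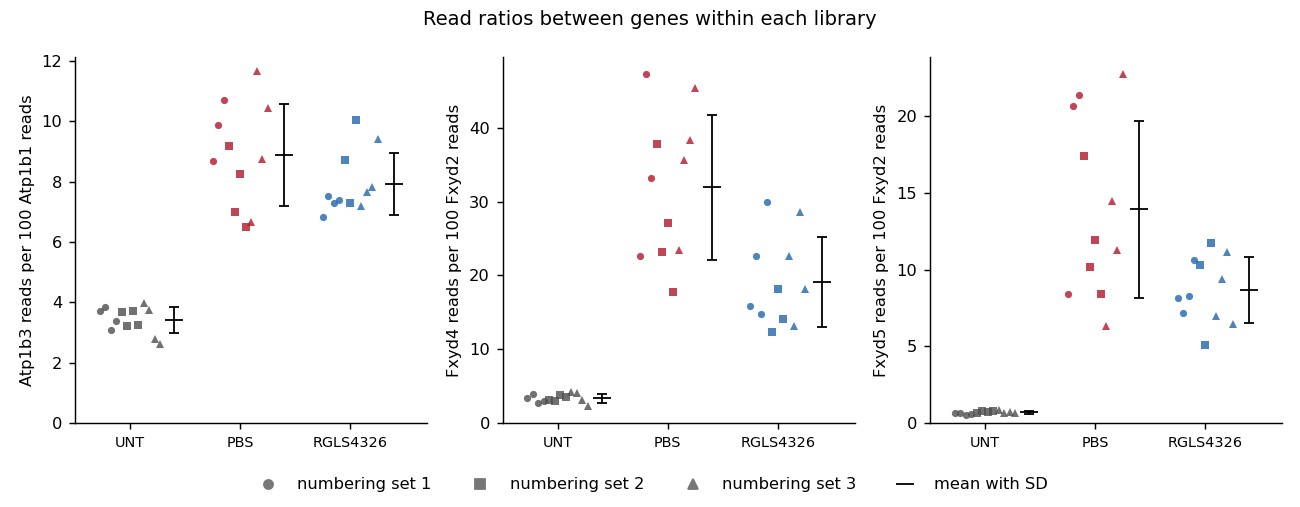
Reads of 1 gene per 100 reads of another within each library (y axes, linear from 0) by group (x axis), for Atp1b3 per Atp1b1, Fxyd4 per Fxyd2 and Fxyd5 per Fxyd2, with points for mice, symbols for the numbering set, and a black bar and whiskers for the mean and SD. All UNT mice lie below all Pkd2-KO mice in each panel.

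Fxyd5, at chr7:31032722-31042481 on the minus strand, encodes dysadherin, a FXYD protein with a long extracellular part that binds the pump in epithelia and lowers cell adhesion. It ranged from 8.51 to 14.5 CPM in UNT mice (median 10.6), from 39.6 to 93.2 CPM in PBS mice (median 61.2) and from 27.0 to 55.6 CPM in RGLS4326 mice (median 46.2). Both Pkd2-KO groups lay above UNT without overlap, and all 11 RGLS4326 mice lay below the PBS mean, 2 of them below the lowest PBS mouse. Fxyd5 was 5.88-fold higher in PBS than in UNT kidneys (log2 fold change 2.56, SE 0.13, edgeR adjusted p = 2.22e-19). It was 1.44-fold lower in RGLS4326 than in PBS kidneys (log2 fold change -0.53, SE 0.12, edgeR adjusted p = 0.00434) and 4.09-fold higher than in UNT kidneys (edgeR adjusted p = 1.42e-16). The treatment difference was -0.46, -0.49 and -0.65 within the 3 numbering sets (edgeR adjusted p = 0.0967, 0.0596 and 0.262) and -0.35 with the no-gene share of reads as a covariate (edgeR adjusted p = 0.148). Of 10 leukocyte markers, 9 were tested. Of these, 8 were higher in PBS vs UNT (median log2 fold change 3.35) and 4 were lower in RGLS4326 vs PBS (median -0.46), and summed levels ranged from 97.8 to 171 CPM in UNT, from 697 to 2243 in PBS and from 656 to 1353 in RGLS4326 kidneys. All 7 markers of injured tubule were higher in PBS vs UNT (median 3.95) and 3 were lower in RGLS4326 vs PBS (median -0.45). The part of leukocytes and injured tubule in the level of Fxyd5 was not tested.

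Fxyd6, at chr9:45370185-45396159 on the plus strand beside Fxyd2, encodes phosphohippolin, known from brain and inner ear. It ranged from 7.22 to 17.4 CPM in UNT mice (median 8.94), from 32.2 to 84.6 CPM in PBS mice (median 50.6) and from 22.6 to 73.8 CPM in RGLS4326 mice (median 27.7). Values in Pkd2-KO kidneys all lay above those in UNT kidneys. Of the RGLS4326 mice, 8 lay below the lowest PBS mouse, while replicates 1, 4 and 10 had 49.2, 63.5 and 73.8 CPM, inside the PBS range. The level was 5.29-fold higher in PBS than in UNT kidneys (log2 fold change 2.40, SE 0.21, edgeR adjusted p = 6.11e-13), 1.49-fold lower in RGLS4326 than in PBS kidneys (log2 fold change -0.57, SE 0.20, edgeR adjusted p = 0.0294) and 3.56-fold higher in RGLS4326 than in UNT kidneys (log2 fold change 1.83, edgeR adjusted p = 4.98e-10). In numbering set 2 alone the difference of RGLS4326 from UNT was 1.20 (edgeR adjusted p = 0.000137). The treatment call was lost when RGLS4326 replicate 2, 5, 6, 7, 9 or 11 or PBS replicate 3 or 10 was left out (edgeR adjusted p from 0.0506 to 0.0632) and when UNT mice were left out of the fit (0.0546). Within the numbering sets the treatment difference was -0.37, -0.97 and -0.54, called in set 2 alone (edgeR adjusted p = 0.563, 0.00675 and 0.390), and it was -0.39 with the no-gene share of reads as a covariate (edgeR adjusted p = 0.272). Although Fxyd2 and Fxyd6 lie 3509 bases apart, on the same strand, Fxyd2 fell in PBS kidneys and Fxyd6 rose. All 7 fibroblast markers were higher in PBS vs UNT (median log2 fold change 1.41) and 1 was higher in RGLS4326 vs PBS. Neural and glial markers, of which 3 of 6 were higher and 1 lower in PBS vs UNT, summed to 16.8 to 24.3 CPM in UNT and 38.4 to 64.4 CPM in PBS kidneys. The part of both lists in the level of Fxyd6 was not tested.

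Fxyd1, at chr7:31051678-31057199 on the minus strand, encodes phospholemman, the FXYD protein of heart and skeletal muscle. It had the lowest level per kilobase of the members in PBS and RGLS4326 kidneys. It ranged from 4.83 to 9.94 CPM in UNT mice (median 7.32), from 7.81 to 14.1 CPM in PBS mice (median 9.79) and from 6.44 to 11.4 CPM in RGLS4326 mice (median 7.91). All groups overlapped, with 5 of 11 PBS mice above the highest UNT mouse and 4 of 11 RGLS4326 mice below the lowest PBS mouse. The level was 1.41-fold higher in PBS than in UNT kidneys (log2 fold change 0.50, SE 0.11, edgeR adjusted p = 0.000104) and 1.27-fold lower in RGLS4326 than in PBS kidneys (log2 fold change -0.34, SE 0.11, edgeR adjusted p = 0.0216). RGLS4326 and UNT kidneys differed by 0.16 on the log2 scale (95% interval -0.07 to 0.38, edgeR adjusted p = 0.192). That difference was called with library size alone (0.45, edgeR adjusted p = 0.000748) and in numbering set 3 (0.55, edgeR adjusted p = 0.0319), and it turned to -0.32 in set 2 (edgeR adjusted p = 0.0616). In PBS vs UNT the difference was 0.50, 0.02 and 0.92 in the numbering sets 1, 2 and 3, with edgeR adjusted p of 0.00469, 0.910 and 0.00125, and with the no-gene share of reads as a covariate it was 0.34 (edgeR adjusted p = 0.0668). With library size alone it was 0.78. The treatment call was lost without PBS replicate 9 or PBS replicate 11 (edgeR adjusted p = 0.0608 and 0.0525), without the 6 libraries with adrenal markers (0.0593), with the replicate number as a block (0.0504), within each numbering set (0.190, 0.0932 and 0.324) and with the covariate (0.248). Of 6 skeletal and cardiac muscle markers, 3 passed the filter, and these summed to at most 4.26 CPM in any library.

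**Figure D5:**
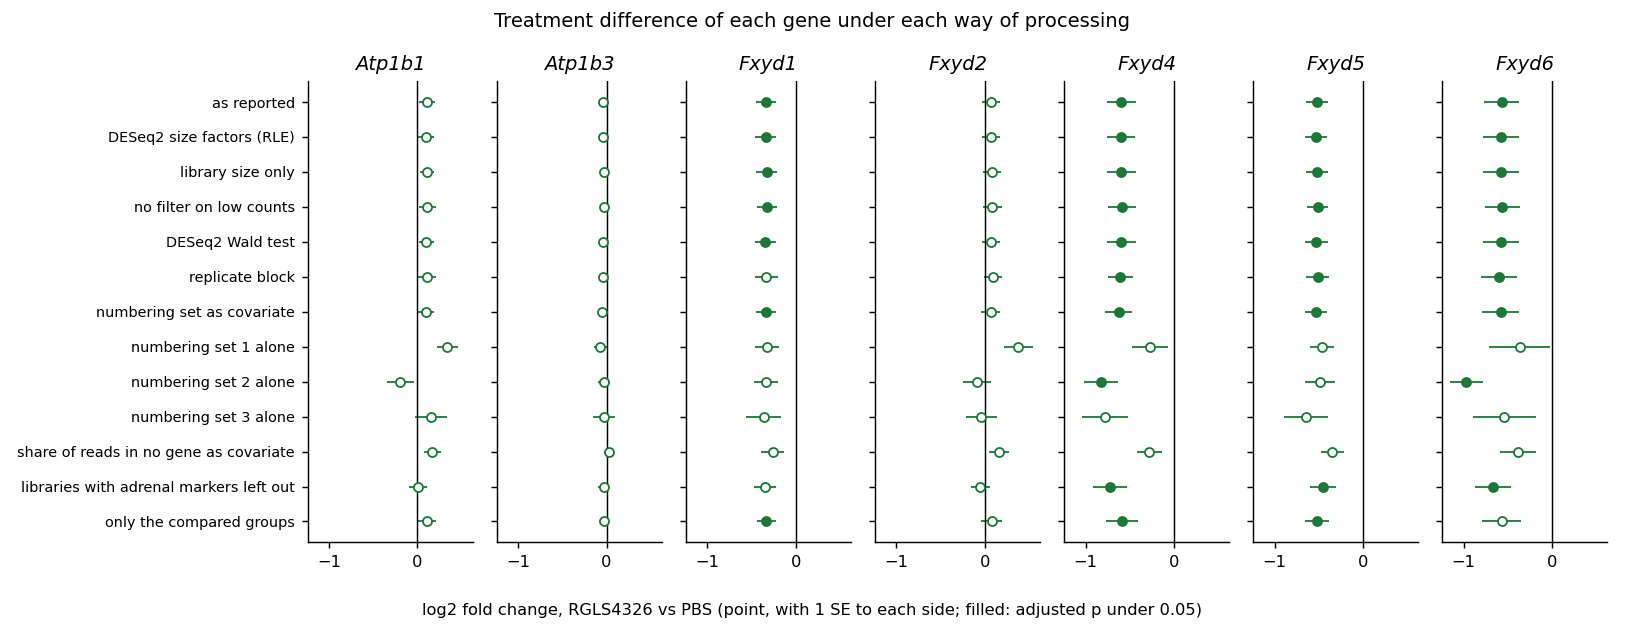
Log2 fold change of each member in RGLS4326 vs PBS (x axis) as reported and under 12 other settings (y axis), with points for estimates, lines for 1 SE to each side, and filled points where the adjusted p is under 0.05. Fxyd1, Fxyd4, Fxyd5 and Fxyd6 stay below 0 in every setting shown, and no member has a filled point in numbering set 1 or 3 alone or with the no-gene share of reads as covariate.

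miR-17 is the target of RGLS4326, so its mature sequence is shown with the seed, bases 2 to 8, in capitals (RefSeq, GRCm38.p6, chr14:115043684-115043706, plus strand).
mmu-miR-17-5p: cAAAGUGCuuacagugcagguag
Other mature mouse miRNAs with this seed in the RefSeq table included miR-20a, miR-93 and miR-106b. The match of the seed, GCACTTT, and the match of its first 6 bases followed by an A, which reads CACTTTA, were looked for in 1 3′UTR per gene, the longest in GENCODE M21. None of the 7 members held one (0 of 7), in 3′UTRs of 170.0 to 2411 bases, against 3109 of 14183 tested genes with a 3′UTR (21.9%). This says that these letters are not in this window, and nothing about other sites.

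Other β subunit and FXYD genes outside the 7 members were measured on the same scale. Fxyd3, a FXYD gene of epithelia that flanks Fxyd1, rose from 1.55 ± 0.402 (SD, n = 12) to 5.71 ± 2.01 (n = 11) CPM and was at 3.06 ± 0.533 (n = 11) in RGLS4326 kidneys (log2 fold change -0.90 against PBS, edgeR adjusted p = 0.000789). Exons of Lgi4 on the other strand overlap 42.4% of its exon bases, and Lgi4 was also higher in PBS kidneys. Atp1b2, the β2 subunit known from glia, was not called in PBS vs UNT (log2 fold change 0.11). Fxyd7, at most 0.634 CPM in any library, was lower in PBS (log2 fold change -0.74, edgeR adjusted p = 0.00499). Atp1b4 (0 to 1 read per library) did not pass the filter.

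Genes that work beside the pump are given as counts. Of 10 carriers and channels of apical sodium entry, 7 were lower and 3 higher in PBS vs UNT (median log2 fold change -2.03), and 6 were higher and 2 lower in RGLS4326 vs PBS (median 0.58). The 7 that were lower are the carriers of proximal tubule, thick ascending limb and distal convoluted tubule, such as Slc34a1 and Slc12a3, and the 3 that were higher are the subunits of the epithelial sodium channel of the collecting duct. Scnn1a, its α subunit, rose in PBS vs UNT (log2 fold change 1.38, edgeR adjusted p = 1.12e-10) and was lower in RGLS4326 than in PBS kidneys (log2 fold change -0.62, edgeR adjusted p = 0.00466). All 8 genes listed as basolateral partners of the pump, potassium and chloride channel genes and the transporter Slc4a4, were lower in PBS vs UNT (median -1.29). Of these, 2 were higher in RGLS4326 vs PBS (Kcnj15 and Slc4a4). Of 9 mineralocorticoid and pump regulators, 3 were higher and 3 lower in PBS vs UNT (median -0.14), and 1 was higher and 2 lower in RGLS4326 vs PBS. Hsd11b2, which protects the mineralocorticoid receptor from glucocorticoids, was higher in PBS (log2 fold change 1.42, edgeR adjusted p = 8.63e-11), and Sgk1, an aldosterone-induced kinase, was lower (log2 fold change -1.73, edgeR adjusted p = 1.02e-09).

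The remaining marker lists gave these counts. In PBS vs UNT, intercalated cell markers were lower in 4 of 6 and higher in 1, podocyte markers lower in 4 of 5 and higher in 1, endothelium markers lower in 4 of 6 and higher in 2, and smooth muscle and pericyte markers higher in 5 of 7 and lower in 1. In RGLS4326 vs PBS, intercalated cell markers were lower in 2 of 6, podocyte markers higher in 4 of 5, endothelium markers higher in 5 of 6, and smooth muscle and pericyte markers higher in 1 of 7 and lower in 1. Only Star of the 5 adrenal cortex markers passed the filter, higher in PBS vs UNT (log2 fold change 4.60) and lower in RGLS4326 vs PBS (log2 fold change -4.13). These differences rest on few PBS libraries, since the median level of Star was 3.49 CPM in PBS against 2.94 in UNT kidneys, the highest PBS level was 450.3 CPM, and the summed adrenal reads of PBS replicates 2 and 11 were 758 and 1253 CPM. All 3 tested muscle markers were higher in PBS vs UNT and 1 was lower in RGLS4326 vs PBS, and 1 of 6 neural and glial markers was higher in RGLS4326 vs PBS.

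Genes most like each member were taken from the deviations of log2(CPM + 1) from the mean of the own group over 34 mice, as the 3 genes with the highest Pearson r. Fxyd5 went with C1qb (r = 0.94), C1qa (0.93) and C1qc (0.92), the chains of complement C1q, which averaged 12.8, 10.1 and 11.7 CPM in UNT and 278, 231 and 237 CPM in PBS kidneys. Fxyd4 went with Elf5 (r = 0.93), Avpr2 (0.93) and Epor (0.92), of which Avpr2, the vasopressin receptor of principal cells, averaged 31.0 CPM in UNT, 88.1 CPM in PBS and 57.5 CPM in RGLS4326 kidneys. Fxyd2 went with Isoc2a (r = 0.90), Gchfr (0.88) and Fitm1 (0.88), and Atp1b1 with Tmem135 (0.89), Atp6v0a4 (0.89), a proton pump subunit of intercalated cells, and Adk (0.85). Atp1b3 went with Taf11 (r = 0.83), Nip7 (0.77) and Ran (0.77), Fxyd1 with Lsp1 (0.84), Pdzd4 (0.80) and Mmp23 (0.79), and Fxyd6 with Ermap (0.73), Slc9a9 (0.71) and Vps11 (0.70). The points share a library and its depth, and each gene was picked as among the highest over 15644 tested genes, so that r is a description.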

How the data were processed

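Per the labels and the study's methods, RNA of 34 kidneys was made into stranded polyA libraries and sequenced in pairs on a NextSeq instrument. The authors checked reads with FastQC 0.11.2, trimmed them with Trim Galore, aligned them to GRCm38 with STAR, handled alignments with SAMtools 1.1 and Picard 1.119, and counted uniquely mapped reads per gene with HTSeq 0.6.1. The deposited values are these raw counts, with no normalization. The strand setting and gene annotation of the counting are not given in the sources used here. Rows that name no gene were left out of library sizes, and rows without a feature made up 4.94 to 12.0% of reads.

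Groups came from the labels, and the study's text gives fewer PBS mice without saying which. Genes were filtered with filterByExpr, scaled by TMM and fitted with edgeR 4.0.16 (R 4.3.3) in 1 quasi-likelihood model of 3 groups, with Benjamini-Hochberg adjustment over 15644 genes and a threshold of 0.05. On simulated counts for PBS vs UNT over 15576 genes, 94 of 100 changes of 1 and 75 of 99 changes of 0.5 on the log2 scale were recovered, with 10 false calls. No other gene was changed there, whereas 82.1% of tested genes were called in PBS vs UNT in the data. The simulation therefore does not show how the fit behaves when most genes differ, and RGLS4326 vs PBS was not simulated. Other settings were DESeq2 1.42.0 as a test and for size factors, library size alone, no filter, the replicate number as a block, the numbering set as covariate or each set alone, the no-gene share of reads as covariate, only the compared groups, each library left out, and, added after seeing the data, 6 libraries with adrenal markers left out. Figures were drawn with matplotlib 3.10.9.

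Genes were named by a rule: the 7 members, other β subunit and FXYD genes, those of the pathway lists past the test, and the 3 genes most like each member. Some genes under the rule are not reported here. Cell type marker lists gave counts. Outside the rule, Pkd2 was given as the targeted gene, Nme7 and Lgi4 as overlapping genes, and Lrp2, Slc5a12, Cldn16 and the 5 adrenal cortex markers from the marker lists, of which Cldn16 and Star were chosen after their values were seen. The members and lists were chosen with earlier results of these data known. Labels do not say that mice of a group came from separate litters or were handled separately, so that p-values measure the spread between these samples.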

Additional observations from a re-analysis of the deposited data

How the results depend on the processing

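Under 12 other settings, the differences of Atp1b1, Fxyd2, Fxyd5 and Fxyd6 between Pkd2-KO and UNT kidneys kept their direction and their call in both comparisons, and so did that of Fxyd4 in PBS vs UNT. The number of members called in PBS vs UNT was 7 as reported, 6 in numbering set 2 alone, 6 in set 3 alone and 5 with the no-gene share of reads as covariate. That in RGLS4326 vs PBS was 4 as reported, 0 in numbering set 1 alone, 2 in set 2 alone, 0 in set 3 alone and 0 with that covariate. For all tested genes the latter count was 5280 as reported, and 54, 4065 and 0 in the sets, 89 with the covariate and 2510 without the 6 libraries with adrenal markers. With the numbering set as a covariate, 4 members and 5859 of all genes (2627 higher, 3232 lower) were called. Each set alone has fewer mice, and in set 2, unlike sets 1 and 3, the no-gene share did not overlap between RGLS4326 and PBS libraries. Treatment and that share cannot be told apart in set 2, and the cause of the differences between sets was not tested. When 1 library at a time was left out, 7 to 7 members were called in PBS vs UNT, 3 to 4 in RGLS4326 vs PBS and 6 to 6 in RGLS4326 vs UNT. In these 34 fits of 15625 to 15696 genes, 81.1 to 82.4%, 25.6 to 39.6% and 76.8 to 79% of all genes were called in these comparisons, and in RGLS4326 vs PBS their number ran from 4023 without RGLS4326 replicate 6 to 6209 without PBS replicate 5.

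Directions turned where no call was made. In RGLS4326 vs PBS, the log2 fold change became -0.19 for Atp1b1 in set 2, 0.024 for Atp1b3 with the covariate, and -0.085, -0.037 and -0.050 for Fxyd2 in set 2, in set 3 and without the libraries with adrenal markers. In RGLS4326 vs UNT, that of Fxyd1 became -0.32 in set 2. It was called with library size alone (0.45) and in set 3 (0.55), while Atp1b3 was not called in set 2 (0.14) or set 3 (0.16), nor Fxyd4 in set 2 (0.37). With library size alone the median of all genes was 0.33 in PBS vs UNT and in RGLS4326 vs UNT, against 0.04 and 0.02, and in the latter 9148 genes were higher and 3471 lower, against 6385 and 5772.

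Replicate numbers were not taken to pair the mice. Same-numbered mice deviated together (r over 0.1) in 3, 5 and 2 of 11 pairs in the comparisons in the order above. Differently numbered mice were not compared in this way, so that pairing is not excluded. With the replicate block, 7, 3 and 6 members and 81.7%, 32.6% and 77.7% of all genes were called, and the call lost was Fxyd1 in RGLS4326 vs PBS (edgeR adjusted p = 0.0504).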
